A study of Mus musculus with 6 samples.

Results

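The 60 genes described here encode the machinery that carries messenger RNA and proteins through the nuclear pore: the export receptors of the NXF and NXT families, the TREX and TREX-2 complexes, the cap-binding complex, the factors that release messenger RNA at the cytoplasmic face, nuclear pore proteins, the Ran cycle and the transport receptors (karyopherins). They were chosen by symbol, not by level, and all 60 matched a row among the 27179 genes listed for each library. The libraries came from purified erythrocytes of single mice on a BalB/c background: 3 males heterozygous for a missense allele (Nxf1+/C587R) and 3 wild-type littermates (Nxf1+/+), with 1 of each genotype in each of 3 batches. Age, treatment and the sex of the wild-type mice are not given in the sources used here, and the mutants keep 1 normal copy of Nxf1. Red cells were pelleted from cardiac blood through Ficoll and their purity was checked by flow cytometry, according to the extraction protocol. The spread between libraries of a genotype therefore holds differences between animals and between batches together, since its 3 libraries come from 3 batches.

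In cells with a nucleus, a transcript is packaged by TREX as it is capped and spliced, is handed to the heterodimer of Nxf1 and Nxt1, and passes the pore, where the helicase Ddx19 and Gle1 strip the receptor off on the cytoplasmic side. Proteins and many other RNAs travel separately on karyopherins, whose direction is set by Ran, a small GTPase that is loaded with GTP in the nucleus by Rcc1 and made to hydrolyse it in the cytoplasm by Rangap1. Mature erythrocytes have expelled the nucleus and make no new RNA, so their transcripts are carried over from the erythroblast, and the youngest of them, the reticulocytes, hold most of that RNA.

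The allele lies near the 3′ end of the Nxf1 coding sequence. The stretch below, written 5′ to 3′, is the GENCODE M21 reference (GRCm38) around it, shown because it places the change that separates the 2 groups. Capitals mark the codon that the label C587R names, in a coding sequence of 618 codons: a cysteine codon at chr19:8770261-8770263 on the plus strand, in exon 20 of 21, and the 93 bases begin in exon 19. The reference thus carries the residue that the allele replaces, and a gene-level count holds reads of both alleles.

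Nxf1 C587R site, reference allele: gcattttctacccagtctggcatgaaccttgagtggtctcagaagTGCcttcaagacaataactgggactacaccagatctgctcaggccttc

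Library totals ran from 14636739 to 15790336 counts, of which 1627997 to 1877571 were not globin. A count of 0 in a library allows up to 3 counts, or 0.190 to 0.205 CPM (counts-per-million of the library total), so 4 counts was taken as the least that stands above it. The fixed erythroid marker list had a high sum in every library (14 of 14 genes seen, 437517 to 537951 counts). Most of that sum was Alas2, with 385072 to 461931 counts per library. Other genes of the list were scarce, among them Klf1 with 6 to 15 counts per library and Gata1 with 8 to 28. Libraries did not stand alike in other respects: 15 hepatocyte markers summed to 1710, 3873 and 2184 counts in mutant mice and to 90, 2 and 1 in wild-type mice, and 12 exocrine pancreas markers summed to 364 counts in wild-type library 1 and to at most 2 elsewhere. The scaling factors by trimmed mean of M values (TMM) also differed, at 0.720, 0.780 and 1.06 in mutant mice and 1.23, 1.11 and 1.23 in wild-type mice.

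Most of the transport machinery was barely detectable in these cells, as were most of all genes listed, and 1 gene held most of the machinery's counts. At least 1 count in some library was seen for 56 of the 60 genes (93.3%, against 60.3% of all genes listed). A count in all 6 libraries was seen for 42 (70%, against 23.4%). At least 4 counts in all 6 libraries were reached by 19 genes (31.7%, against 11.5%). At least 10 counts in all 6 were reached by 6 genes (10%, against 5.82%): Ran, Xpo7, Rangap1, Kpna4, Thoc7 and Ddx39b. No library gave 4 counts for 16 of the 60. By library, 25, 29 and 26 members reached 4 counts in mutant mice and 40, 26 and 35 in wild-type mice. Over all genes the same minimum was met by 4526, 5112 and 5313 genes in mutant mice and 7478, 5201 and 6215 in wild-type mice, so the wild-type libraries 1 and 3 were high for the members and for all genes.

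Ran alone took 83.6% ± 5.07 of the counts of the 60 genes in mutant mice and 75.6% ± 0.832 in wild-type mice (SD, n = 3 each). It was the 63rd most abundant of 16396 genes with any count, while Xpo7 was the 350th, Rangap1 the 523rd and Nxf1 the 2349th. The other 59 genes together had 351, 420 and 524 counts in mutant mice and 633, 499 and 725 in wild-type mice. All 60 genes together made up 0.165% ± 0.0159 of the non-globin counts in mutant mice and 0.144% ± 0.0188 in wild-type mice. Every other gene was far below Ran in each library.

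**Figure D1:**
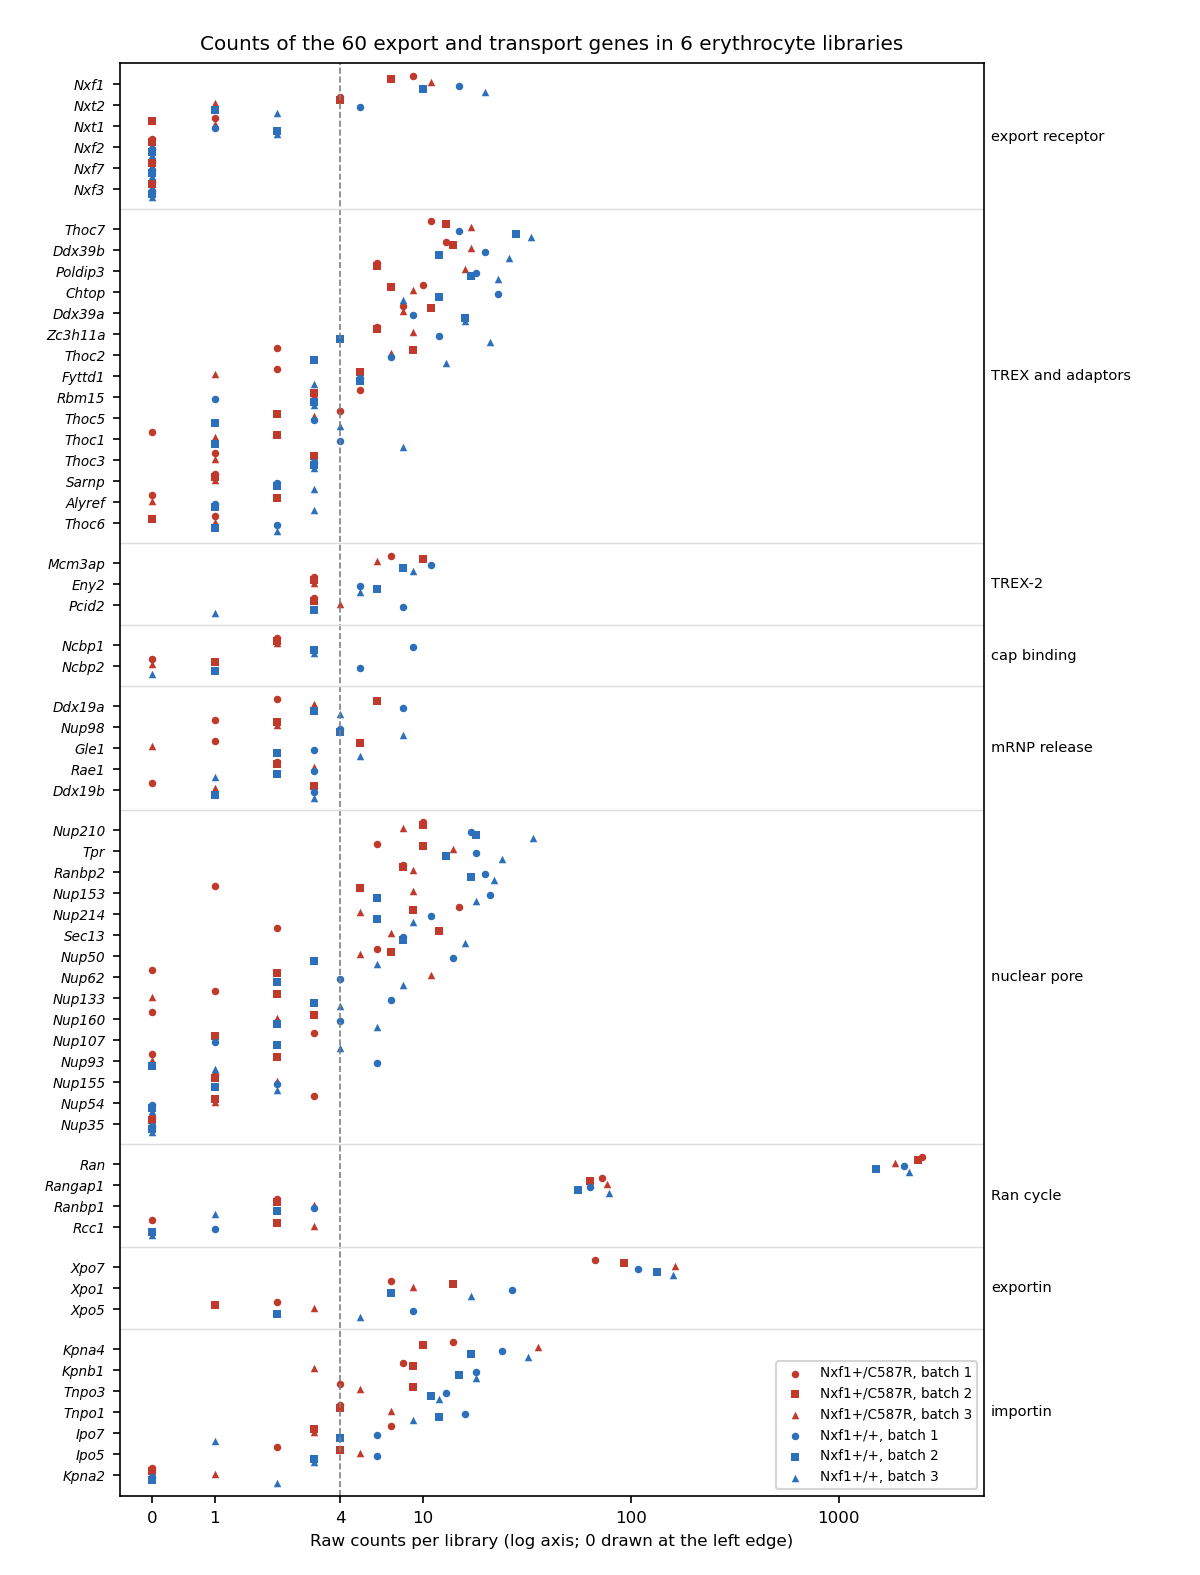
Raw counts of each of the 60 genes (rows, grouped by role and sorted by total count) in each of the 6 libraries, on a log axis with 0 drawn at the left edge; the colour is the genotype, the symbol the batch, and the dashed line marks 4 counts. Ran lies between 1505 and 2518 counts in all libraries, Xpo7 and Rangap1 between 56 and 164, and no other gene exceeds 36 in a library.

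Levels of different genes can be compared only per length, here as TMM-scaled CPM per kilobase of the gene length in the files. On that scale Ran was at 80.6 ± 25.2 in mutant mice and 45.5 ± 4.75 in wild-type mice (SD, n = 3 each), against 1.89 ± 0.298 and 1.20 ± 0.131 for Rangap1, the next in order. Thoc7 followed at 0.928 ± 0.0442 and 1.22 ± 0.461, Ddx39b at 0.657 ± 0.0287 and 0.592 ± 0.173, and Xpo7 at 0.541 ± 0.149 and 0.487 ± 0.0969. The level of Nxf1 was 0.310 ± 0.0516 in mutant mice and 0.354 ± 0.0924 in wild-type mice. Rangap1 and Thoc7 overlapped in wild-type mice within their spread, as did Ddx39b, Xpo7 and Kpna4 in both groups, so the order below Ran is not sharp. The files give Xpo7 a length of 15118 bases against 2288 for Ran, so Xpo7 comes after Ran by CPM but below Rangap1, Thoc7 and Ddx39b per kilobase.

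**Figure D2:**
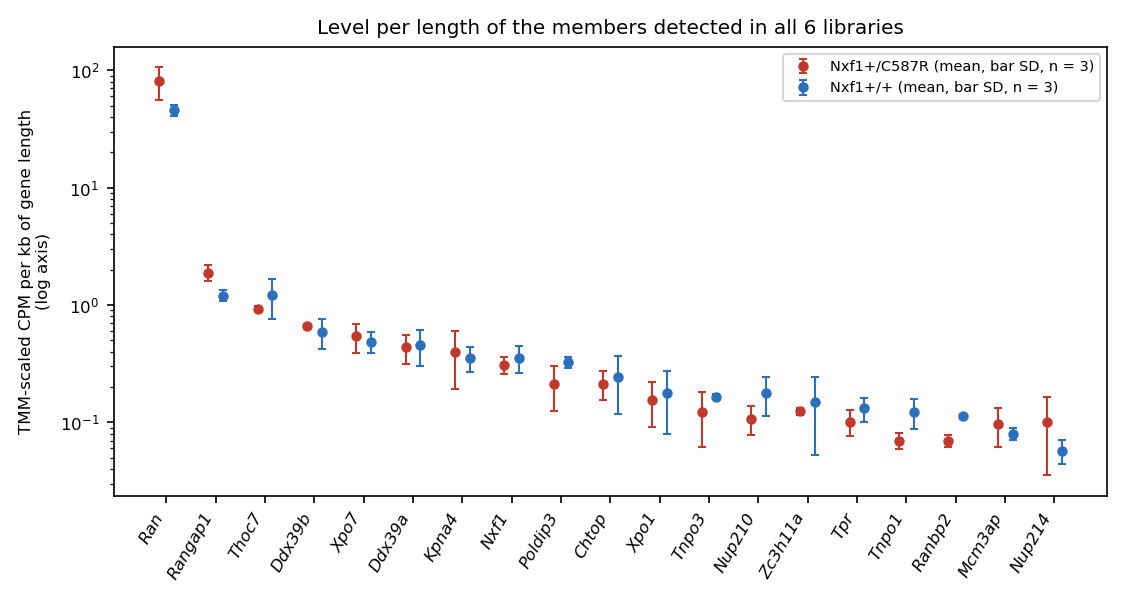
Mean level (points) and SD (bars, n = 3) in TMM-scaled CPM per kilobase of gene length, on a log axis, for the 19 genes with at least 4 counts in all 6 libraries, by genotype. Ran stands apart from the rest in both genotypes, and the bars of the 2 genotypes overlap for most other genes.

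Among the export receptors, only Nxf1, the main receptor for messenger RNA, passed the filter on low counts. The gene (Entrez 53319, chr19:8757103-8770910 in GRCm38) had 9, 7 and 11 counts in mutant mice and 15, 10 and 20 in wild-type mice. The groups overlapped, in TMM-scaled CPM as in CPM of the total count (exact permutation p = 0.6 and 0.2, two-sided, n = 3 each, smallest possible 0.1). The log2 fold change was −0.21 (SE 0.38, edgeR adjusted p = 0.850). Nxt2, a form of the small partner that NXF receptors need, had 4, 4 and 1 counts in mutant mice and 5, 1 and 2 in wild-type mice, too few to test. Nxt1, the partner best known in other cells, had 2 counts over the mutant libraries and 5 over the wild-type ones. Nxf2, Nxf3 and Nxf7, the relatives of Nxf1 best known from germ cells or brain, had no count in any library. These 4 receptor genes fall outside the rule for naming and are given because of their values.

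TREX couples export to transcription and splicing, and 5 of the 15 genes of TREX and its adaptors could be tested. Thoc7, a subunit of the THO core, was the most abundant by TMM-scaled CPM, with 11, 13 and 17 counts in mutant mice and 15, 28 and 33 in wild-type mice. Ddx39b, the RNA helicase of TREX also known as UAP56, had 13, 14 and 17 counts in mutant mice and 20, 12 and 26 in wild-type mice. Poldip3, an adaptor that binds Nxf1 and the exon junction complex, had 6, 6 and 16 counts in mutant mice and 18, 17 and 23 in wild-type mice. None of these was called: the log2 fold changes were −0.38 (SE 0.35), 0.13 (SE 0.33) and −0.55 (SE 0.38), with edgeR adjusted p of 0.648, 0.891 and 0.502. The other 2 tested were Chtop and Ddx39a. The 10 untested members of this group had 7 to 58 counts over all 6 libraries, among them Alyref, the adaptor that hands RNA to Nxf1.

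The smaller complexes of the export route had few counts. Mcm3ap, the scaffold of TREX-2, which ties transcription to the pore, had 7, 10 and 6 counts in mutant mice and 11, 8 and 9 in wild-type mice. Eny2, a subunit that TREX-2 shares with the SAGA complex, had 3 counts in each mutant and 5, 6 and 5 in wild-type mice. For the cap-binding complex, Ncbp1 had 2 counts in each mutant and 9, 3 and 3 in wild-type mice, and Ncbp2, which holds the cap itself, had 1 count over the mutant libraries and 6 over the wild-type ones. None of these 4 genes was tested. Mcm3ap stood above 3 counts, which a count of 0 allows, in all 6 libraries, and Eny2, Ncbp1 and Ncbp2 did not in any mutant library.

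At the release step, Ddx19a, a helicase that removes the export receptor at the pore, had 2, 6 and 3 counts in mutant mice and 8, 3 and 4 in wild-type mice. Nup98, a pore protein that docks export complexes with Rae1, had 1, 2 and 2 counts in mutant mice and 4, 4 and 8 in wild-type mice. The groups did not overlap, but all mutant counts were below the minimum of 4 and the difference was not tested. Among all genes tested, wild type lay above the mutants without overlap for 31.5% in CPM of the total count and for 11.1% in TMM-scaled CPM. Ddx19a and its neighbour Ddx19b share 48.6% of the 50-base windows of the Ddx19a coding sequence (673 of 1385), with an unbroken shared run of 275 bases, so their counts cannot be kept apart with confidence. Ddx39a and Ddx39b, by comparison, share no 50-base window in coding sequence, and their longest common run is 26 bases.

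Of 15 nuclear pore genes 3 could be tested. Nup210, a membrane-spanning pore protein, had 10, 10 and 8 counts in mutant mice and 17, 18 and 34 in wild-type mice. Tpr, which builds the nuclear basket, had 6, 10 and 14 against 18, 13 and 24. Ranbp2, the large protein of the cytoplasmic filaments that binds Ran, had 8, 8 and 9 against 20, 17 and 22. For Nup210 and Ranbp2 the wild-type libraries were all above the mutants in raw counts. In CPM of the total count, wild type lay above without overlap for 31.5% of all genes tested. In TMM-scaled CPM Ranbp2 was at 0.662 ± 0.0764 in mutant mice and 1.07 ± 0.0522 in wild-type mice (SD, n = 3 each). None passed: the log2 fold changes of Nup210, Tpr and Ranbp2 were −0.75 (SE 0.38), −0.36 (SE 0.37) and −0.71 (SE 0.36), with edgeR adjusted p of 0.308, 0.706 and 0.307. With total counts in place of TMM scaling, Nup210 and Ranbp2 had −1.26 and −1.19 and did not pass (edgeR adjusted p = 0.0515 and 0.0517). The median over all genes tested was then −0.53. Nup210, Tpr and Ranbp2 met the filter on low counts through wild type alone, so lower values in the mutants are partly set by it. The 12 untested pore genes had 0 to 60 counts over all libraries, and Nup35, named for that value, was at 0 in all.

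The Ran cycle held the most counts of any role (12965 over all libraries), nearly all of them from Ran itself. Ran (Entrez 19384, chr5:129020156-129024322) had 2518, 2412 and 1856 counts in mutant mice and 2062, 1505 and 2180 in wild-type mice. In TMM-scaled CPM these are 231, 203 and 120 in mutant mice and 108, 91.8 and 112 in wild-type mice, so that mutant libraries 1 and 2 stand well above wild type and mutant library 3 is just above it. Ran rose, with a log2 fold change of 0.82 (edgeR adjusted p = 0.0233, SE 0.21) and within-batch differences of 1.09, 1.14 and 0.09. As CPM of the total count, the values were 166, 158 and 127 in mutant mice and 133, 102 and 138 in wild-type mice. Here mutant library 3 is below wild-type libraries 1 and 3, the groups overlap, and the log2 fold change of 0.27 did not pass (edgeR adjusted p = 0.203). The median over all genes tested lay at −0.06 after TMM scaling and at −0.53 from total counts. A scaling factor shifts all genes of a library alike, so setting Ran against this median is no separate check of the scaling. The call held with batch as a term (log2 0.78, edgeR adjusted p = 0.000322). It also held without mutant library 3 (1.14, adjusted p = 0.000187), and was lost without any other single library (0.71 to 0.89, adjusted p 0.0561 to 0.115).

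Rangap1, which makes Ran hydrolyse GTP, was the third most abundant member by CPM. This gene (Entrez 19387, chr15:81704248-81730798) had 73, 64 and 77 counts in mutant mice and 64, 56 and 79 in wild-type mice. In TMM-scaled CPM it was at 6.69, 5.38 and 4.97 in mutant mice and 3.36, 3.42 and 4.07 in wild-type mice, without overlap, and as CPM of the total count at 4.81, 4.20 and 5.26 against 4.13, 3.81 and 5.003, with overlap. The log2 fold change of 0.64 (SE 0.22) missed the threshold (edgeR adjusted p = 0.104), and passed when mutant library 3 was left out (0.82, adjusted p = 0.0439). The remaining members of the cycle were scarce: Ranbp1, a Ran cofactor, had 13 counts over all libraries and Rcc1, the nuclear exchange factor, had 6, both named for these values.

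Ran has close copies in the genome, and the counting rule for reads that match several places is not given in the sources used here. Of the 50-base windows of the Ran coding sequence, 60.6% (363 of 599) also occur in transcripts of other genes, all 363 of them in the processed pseudogene Gm13461 on chromosome 2. No gene listed for the libraries carries the symbol Gm13461, so no count can be given for it. Rasl2-9, an intronless relative of Ran, holds 29 of the windows, which thus also occur in Gm13461, and had no count in any library. Over the whole Ran transcript the share with a copy elsewhere was 15.7%. The coding stretch below is the longest run identical in Ran and Rasl2-9, bases 562 to 638 of both coding sequences (GENCODE M21, GRCm38), and is shown because a read inside it fits both genes. In Ran it lies within chr5:129022501-129022805 (plus strand) and crosses an intron, and in Rasl2-9 it is chr7:5125292-5125368 (minus strand).

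Ran and Rasl2-9 shared run: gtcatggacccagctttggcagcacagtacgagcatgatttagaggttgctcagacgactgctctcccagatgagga

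Xpo7 was the most abundant transport receptor by CPM. The gene (Entrez 65246, chr14:70662126-70770864) encodes exportin 7, a karyopherin known to be strongly expressed in maturing erythroblasts. Its counts were 67, 93 and 164 in mutant mice and 108, 134 and 160 in wild-type mice, so mutant library 3 was the highest and mutant library 1 the lowest of all 6. In TMM-scaled CPM the groups were at 8.18 ± 2.25 and 7.36 ± 1.47 (SD, n = 3 each), and the log2 fold change was 0.16 (SE 0.23, edgeR adjusted p = 0.793). With total counts it was −0.27 (adjusted p = 0.509), so its direction depends on the scaling. Xpo1, also known as CRM1, the general exportin for proteins and several RNAs, had 7, 14 and 9 counts against 27, 7 and 17 and a log2 fold change of −0.22 (SE 0.45, adjusted p = 0.864). Its wild-type counts varied more than the difference between the groups.

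Among the importins 3 of 7 were tested and 0 called. Kpna4, an importin alpha, had 14, 10 and 36 counts in mutant mice and 24, 17 and 32 in wild-type mice. The fold change on the log2 scale was 0.20 after TMM scaling but −0.24 with total counts (edgeR adjusted p = 0.845 and 0.697). Kpnb1, importin beta 1, which carries importin alpha with its cargo through the pore, had 8, 9 and 3 counts in mutant mice and 18, 15 and 18 in wild-type mice, without overlap. On the log2 scale its difference was −0.79 (SE 0.44, edgeR adjusted p = 0.367) after TMM scaling, and −1.31 from total counts (adjusted p = 0.0618). Kpnb1 met the filter on low counts through wild type alone, so its lower values in the mutants are partly set by the filter.

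**Figure D3:**
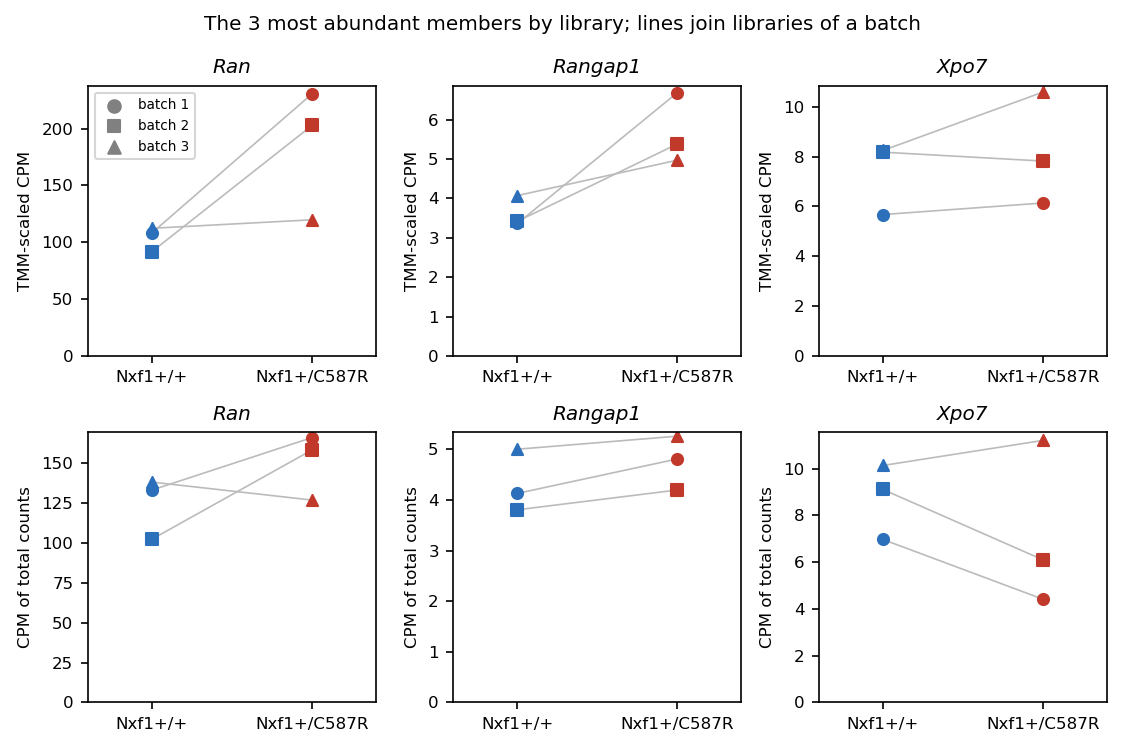
Ran, Rangap1 and Xpo7 in each library as TMM-scaled CPM (upper row) and as CPM of the total count (lower row); symbols are batches, lines join the wild-type and mutant library of a batch, and all axes start at 0. Ran and Rangap1 do not overlap between genotypes in the upper row and overlap in the lower row, and mutant library 3 lies close to wild type for Ran in both.

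Across the machinery, 16 of the 60 genes passed the filter on low counts, and 1 of them, Ran, was called higher (6.25%), against 5.99% of all 2823 genes tested. None was called lower, against 1.06% of all genes, and 7.05% of all genes were called in either direction. Ran was also the 1 member called with batch as a term (6.87% of all genes higher, 2.13% lower, 9% in either direction), with DESeq2 (6.27%, 0.39% and 6.66%) and with RLE factors (6.2%, 0.673% and 6.87%). The filter asks for about 10 counts in 3 libraries. Both genotypes met it by themselves for 5 of the 16 genes, only wild type did for 8 (Nxf1, Poldip3, Nup210, Tpr, Ranbp2, Kpnb1, Kpna4 and Tnpo3), the mutants alone for 0, and the other 3 passed through libraries of both. Where a gene of those 8 was lower in the mutants, this is thus partly set by the filter. Kpna4 was not lower after TMM scaling (log2 fold change 0.20). Counts or medians over the 16 are given as a description. With total counts 0 members were called, against 4.07% of all genes higher and 8.68% lower (12.8% in either direction), so the calls over all genes went from 169 higher and 30 lower to 115 higher and 245 lower. At an adjusted p under 0.05 the members were thus called about as often as other genes of this table. The log2 fold changes of the 16 had a median of −0.21 after TMM scaling, beside −0.06 for all genes tested, and with total counts −0.71 beside −0.53. That gap depended on the filter: with none, the 56 members with any count had a median of −0.14 beside −0.15 for all genes, and at a mean count of at least 50 the 3 members left had 0.50 beside −0.06.

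The groups did not overlap in TMM-scaled CPM for 4 of the 16 genes. The mutants were above wild type for 2 (Ran and Rangap1, 12.5%, against 12.3% of all genes tested) and below it for 2 (Ranbp2 and Kpnb1, 12.5%, against 11.1%). As CPM of the total count, 0 were above (against 5.31%) and 5 were below (31.2%, against 31.5%): Poldip3, Nup210, Ranbp2, Kpnb1 and Tnpo3. The shares are near those of all genes in each case, and all 5 genes named last passed the filter through wild type alone. Fewer cells of a type and less RNA per cell cannot be told apart in these bulk libraries.

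**Figure D4:**
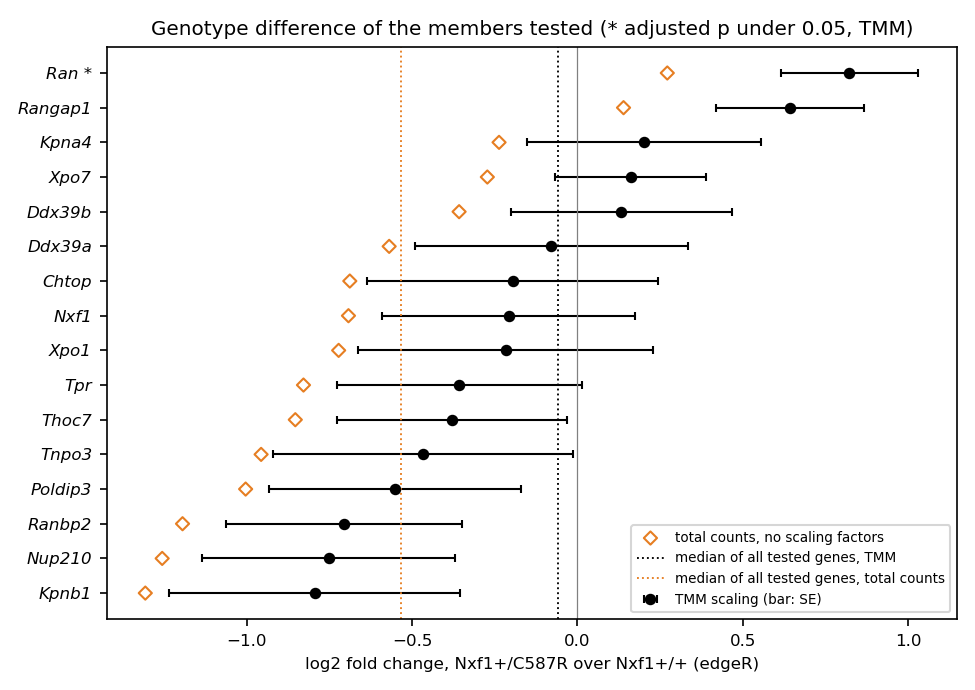
Log2 fold change of mutant over the wild-type ones for the 16 genes tested, with TMM scaling (filled points, bars SE) and with total counts (open diamonds); dotted lines mark the median of all 2823 genes tested under each. Only Ran passed with TMM scaling, no gene passed with total counts, and leaving out the scaling factors moved all 16 genes to the left.

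Genes outside the 60 were read from 2 lists, 1 named for nuclear transport and 1 for messenger RNA export and nuclear messenger ribonucleoproteins. A place in a list does not show that a gene acts in that pathway. Of the 30 genes of the nuclear transport list, 28 were seen, 3 passed the filter and 0 were called in either direction. Ranbp10, a relative of the Ran-binding protein Ranbp9 that is known from megakaryocytes and platelets, was the most abundant by CPM, at 27.5 ± 3.21 TMM-scaled CPM in mutant mice and 31.5 ± 3.41 in wild-type mice (SD, n = 3 each), followed by Xpo6, an exportin for actin, at 2.12 ± 0.628 and 1.77 ± 0.406. Ranbp10 had a log2 fold change of −0.20 (SE 0.17, edgeR adjusted p = 0.624), and with total counts −0.70 (adjusted p = 0.0109), past the threshold.

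Of the 20 genes of the list for messenger RNA export and nuclear messenger ribonucleoproteins, 11 passed the filter and 0 were called. The 2 most abundant by CPM were Pabpc1, the cytoplasmic poly(A)-binding protein, and Cetn2, a centrin that is also part of TREX-2. Pabpc1 was at 362 ± 30.2 TMM-scaled CPM in mutant mice and 433 ± 66.9 in wild-type mice, with a log2 fold change of −0.26 (SE 0.16, edgeR adjusted p = 0.442). With total counts it was −0.73 (adjusted p = 0.00518), and each of these 2 lists then held 1 gene called lower and 0 higher. Cetn2 was at 2.45 ± 0.0173 and 2.38 ± 0.235 and did not pass under either scaling.

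Markers of other blood and tissue cells were read beside these results. The T and NK cell list (10 genes, all seen) had 25, 37 and 32 counts in mutant mice and 69, 97 and 169 in wild-type mice. Of its 3 genes tested, 2 were called lower: Gzma, a granzyme (log2 fold change −2.10, edgeR adjusted p = 0.00428), and Tcf7, which encodes the transcription factor TCF1 of T cells (−2.00, adjusted p = 0.00913), named for that result. The B cell list (8 genes, all seen) had 240, 271 and 159 against 373, 290 and 758. The neutrophil and macrophage list (10 of 11 genes seen, Elane at 0) had 1126 to 2133 counts in mutant mice and 1799 to 2288 in wild-type mice. Platelet genes (8, all seen) had 59 to 180 against 143 to 282, and genes of dividing cells (10, all seen) 413 to 542 against 541 to 750. In these 4 lists 0 of 7, 0 of 5, 0 of 5 and 0 of 6 genes tested were called, in the order given. Of the 15 hepatocyte genes, whose sums are given above, 13 were called higher. Over all genes tested, 5.99% were called higher and 1.06% lower. The lists were chosen with earlier results of these data known, so their calls are only a description. In TMM-scaled CPM the hepatocyte sum was 157, 326 and 141 in the mutant libraries. On this scale it was highest in library 2 and lowest in library 3, while the raw counts were lowest in library 1. The part of any of these cells in the values of Ran or of the scarcer members was not tested.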

How the data were processed

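Polyadenylated RNA from 6 erythrocyte samples was sequenced as Illumina TruSeq libraries, per the labels' protocols. The authors deposited 1 table per library of raw counts, with genes by Entrez number and the gene length in bases, the same in all 6, per the file headers. The submitters' processing notes name CASAVA 1.8.2, Subread, featureCounts and mm10; the annotation, the strand setting and the handling of multi-mapped reads are not given in the sources used here, so reads of overlapping or antisense genes cannot be told apart. Symbols and positions came from the RefSeq table of GRCm38.p6, and sequences from GENCODE M21; for 50-base windows, the longest coding transcript of a gene was set against all other transcripts in sense.

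Genotypes were compared with edgeR 4.0.16 (R 4.3.3): TMM scaling, filterByExpr, and a robust quasi-likelihood test of genotype with no other term. P-values were adjusted over the 2823 genes tested (Benjamini-Hochberg) and a gene was called under 0.05. The standard error is the log2 fold change over the square root of F. Printed CPM carry TMM factors unless the total count is named. The scripts were tested on simulated data. Alternatives were RLE factors, total counts, removal of globins, DESeq2 1.42.0, dropping the filter or raising it to a mean count of 50, batch as a term, and leaving out each library; leaving out each batch, and DESeq2 with batch, were added after seeing the data. The batch label pairs 1 mutant with 1 wild-type library; deviations of same-batch libraries from their group means correlated at −0.116, −0.0855 and −0.0439.

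The members and gene lists were chosen with earlier results of these data known. The naming rule took Nxf1, each member called with TMM, RLE, total counts, batch or DESeq2, the 10 most abundant, the 2 most abundant of each role, and the 4 with the smallest p in each direction, and of the pathway lists the called genes and the 2 most abundant. It gave 20 members. Intervals for counts of 0 cover counting error only, since the reads carry no molecular identifiers.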

Additional observations from a re-analysis of the deposited data

How the results depend on the processing

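The count of genes called lower moved most: 30 in the comparison above, 19 with RLE factors, 245 with total counts, 82 with no filter, 49 at a mean count of at least 50, 11 with DESeq2, 3 with DESeq2 and the replicate block, and 60 with the replicate block (batch as a term). It was 8 to 77 without single libraries, and 19 and 3 without batch 2 or 3. Genes called higher were 169, and 382 with no filter and 66 at a mean count of at least 50. Members called higher were 1, with 0 under total counts or at a mean count of at least 50, 0 to 2 without single libraries and 0 without batch 1 or batch 2. No alternative run called a member lower (edgeR and DESeq2).

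Ran kept its direction in all 17 alternatives and lost its call in 9, among them a mean count of at least 50 (log2 0.66, edgeR adjusted p = 0.0564), no batch 1 (0.72, 0.166) and no batch 2 (0.71, 0.239). Signs changed only for genes that did not pass: Nxf1 (−0.35 to 0.011 without single libraries, 0.079 without batch 3), Ddx39b (−0.36 with total counts, −0.037 to 0.36 without single libraries, −0.031 without batch 2), Xpo7 (−0.27 with total counts), Kpna4 (−0.24 with total counts, −0.24 to 0.53 without single libraries, −0.045 without batch 3) and Xpo1 (−0.54 to 0.25 without single libraries, 0.41 and 0.046 without batch 1 or 3). Detected members were 42 at 1 count and 6 at 10 counts in all libraries (70% and 10%, against 23.4% and 5.82% of all genes listed). The members' share was 0.0179% and 0.0165% of all counts, globins included, by construction. Except where an alternative's own construction shows it, the cause of these changes was not tested. The replicate block changed no call of a member. Of the 60 members, 44 had too few counts to be tested, and none of these exceeded 60 counts over the 6 libraries.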

Other observations

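Ratios of raw counts within a library do not depend on the scaling, and 6 ratios among Ran, Rangap1, Xpo7, Ranbp10 and Pabpc1 were taken after the values had been seen; adjusted over the 6 (Benjamini-Hochberg), none had p below 0.3. Ran was 7.82, 6.93 and 5.03 times Ranbp10 in the 3 mutant libraries and 3.92, 2.71 and 3.40 times Ranbp10 in the 3 wild-type ones, without overlap (exact permutation p = 0.1, two-sided, the smallest possible). Against Pabpc1 the ratios were 0.700, 0.521 and 0.327 in the mutant libraries and 0.305, 0.195 and 0.238 in the wild-type ones, also without overlap (exact permutation p = 0.1). Against Rangap1 they were 32.1 ± 7.10 and 28.9 ± 2.90 (SD, n = 3 each, exact permutation p = 0.6), and the groups overlapped. Against Xpo7 they ran from 11.3 to 37.6 in the mutant libraries and from 11.2 to 19.1 in the wild-type ones (exact permutation p = 0.3). With total counts, Ranbp10 and Pabpc1 were themselves called lower in the mutants (log2 −0.70 and −0.73, edgeR adjusted p = 0.0109 and 0.00518). The higher ratios of Ran against them are thus partly set by this choice of genes, and are no separate support for Ran. A ratio shows unequal change of its 2 genes and not which of them differed.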
